A study of Mus musculus with 6 samples.

Results

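The collagen genes of the mouse hypothalamus were compared between SRC-1 knockout and wild-type mice. They were taken from the deposited count table as every gene whose symbol consists of Col, a number, the letter a and a number, with 2 symbols left out by name and with at least 10 counts summed over the 6 libraries. Of the 50559 genes in the table, 44 had such a symbol, 42 were kept and 0 fell under the count minimum. The 42 genes comprised 11 for chains of fibrillar collagens, 6 for chains of type IV collagen, the collagen of basement membranes, and 25 for other collagens. RNA sequencing had been done on hypothalamus from 3 SRC-1 knockout samples, which carry a deletion of the SRC-1 gene (Ncoa1), and from 3 wild-type samples. SRC-1 is a coactivator of nuclear receptors, and the title of the series places it in cognitive decline with age. The labels state neither the age, sex or strain of the mice nor which exons are deleted, and they do not say whether each library came from its own animal. The p-values therefore measure the spread between libraries of a genotype, which may be partly technical.

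Collagens are extracellular proteins built of 3 chains that wind into a triple helix. Fibrillar collagens form the banded fibres of connective tissue, type IV collagen forms the sheet-like network under endothelium and epithelium, and the remaining types decorate fibres, form short-chain networks or filaments, or span the cell membrane. In the brain, fibrous collagen lies mainly in the meninges and around larger vessels, whereas type IV collagen surrounds the capillaries and lines the surface below the meninges.

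The libraries held between 36613507 and 46755553 counts. Ncoa1 had 1692, 1478 and 1766 counts in knockout libraries 1, 2 and 3, against 5180, 4630 and 5406 counts in wild-type libraries 1, 2 and 3, so each library fitted its label. All 9 genes listed as markers of hypothalamic neurons were detected in every library. Libraries of 1 genotype differed among themselves in collagen level: 33 of the 41 tested collagen genes were highest in knockout 2 among the knockout libraries, and 34 were highest in wild-type 2 among the wild-type libraries. Values for single libraries are therefore given throughout. The libraries are of bulk tissue, in which fewer cells of a type and less RNA per cell cannot be told apart.

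Of the 41 collagen genes that passed the filter on low counts, 1 was lower and 0 were higher in the knockout (edgeR quasi-likelihood test, Benjamini-Hochberg adjusted p under 0.05). The gene was Col8a2, which encodes a chain of the short-chain network collagen type VIII. Over all 20257 genes tested, 0.834% passed this threshold, 0.592% lower and 0.242% higher. A count of 1 of 41 is 2.44%, and a share that rests on 1 gene says little about the group. At an unadjusted p under 0.05, 6 collagen genes were lower (14.6%) and 0 were higher, against 7.21% and 5.75% of all genes and 13.0% in either direction. The knockout and wild-type values did not overlap for 4 of the 41 tested genes, all lower in the knockout. These are 9.76% of the tested collagen genes, close to the 9.03% found over all genes in that direction. In the other direction 0 tested collagen genes were separated, against 8.58% of all genes, and 17.6% of all genes were separated in either direction. The median log2 fold change of knockout over wild type was -0.06 for the 41 genes, with 19 positive and 22 negative, against 0.00 for all genes. Col10a1, a network collagen of cartilage, was the 1 gene not tested, with 46 counts over all libraries; the next lowest totals, 93 for Col17a1 and 248 for Col9a1, were tested.

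**Figure D1:**
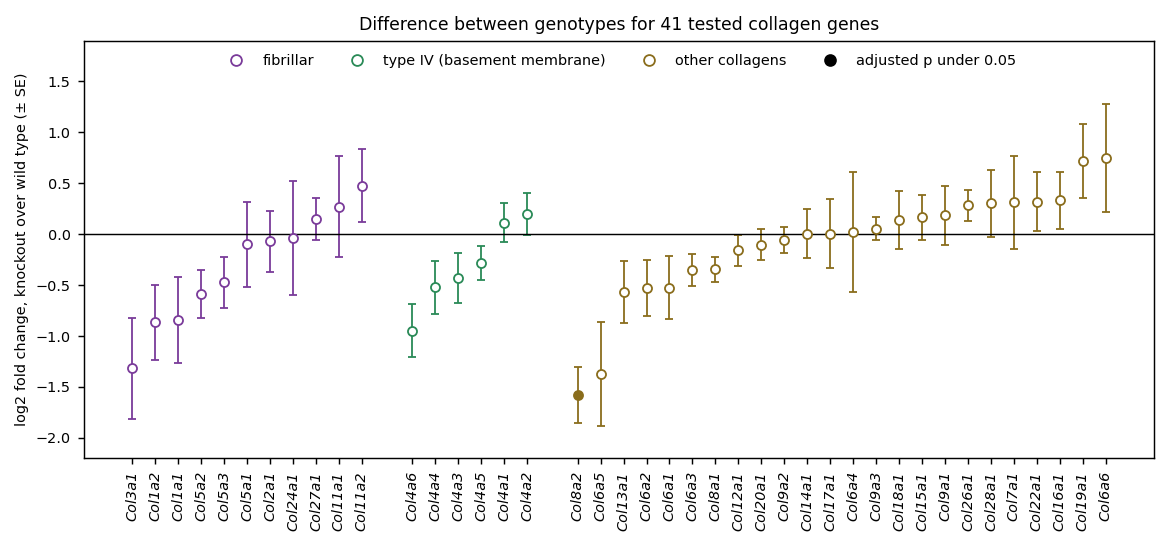
Log2 fold change of knockout over wild type for the 41 tested collagen genes, with its standard error (SE), grouped into fibrillar, type IV and other collagens and sorted within each group. The filled point is Col8a2, at -1.58, the 1 gene with an adjusted p under 0.05; open points did not pass the test.

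Col8a2 had 2.12, 4.26 and 2.17 CPM (TMM-normalised counts scaled to library size) in knockout libraries 1, 2 and 3, against 9.68, 8.50 and 7.22 CPM in wild-type libraries 1, 2 and 3. All knockout values lay under all wild-type values, and knockout 2 was the highest of the knockout libraries. The level was 2.85 ± 1.22 CPM in knockout and 8.47 ± 1.23 CPM in wild type (SD, n = 3 each), a log2 fold change of -1.58 ± 0.27 (SE), with wild type 2.98-fold higher in the fit. The adjusted p was 0.0497, just under the threshold, and it exceeded the threshold in 10 of the 15 alternative analyses. It was 0.165 without knockout 1, 0.0882 without knockout 3, and leaving out wild-type 1, 2 or 3 gave 0.139, 0.103 or 0.0673, whereas leaving out knockout 2 gave 0.00115. Its direction did not change in any of the 15, where the log2 fold change ran from -1.98 to -1.30. The gene lies on chromosome 4 (GRCm39, 126180587 to 126208123, plus strand), and none of its exon bases is shared with another gene.

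Col8a1, which encodes the other chain of type VIII collagen, had 4.91, 4.71 and 5.26 CPM in knockout libraries and 5.88, 6.47 and 6.52 CPM in wild-type libraries. The groups did not overlap, but the distance was small. Its log2 fold change was -0.34 ± 0.12 with an adjusted p of 0.258, and the values of the 3 knockout libraries lay closer together than those of Col8a2. Per kilobase of exon, Col8a2 stood at 0.636 CPM in knockout and 1.89 CPM in wild type, and Col8a1 at 0.971 CPM in knockout and 1.23 CPM in wild type. By these means Col8a2 was the lower of the pair in knockout and the higher in wild type, but in knockout 2 it stood above Col8a1, at 0.950 against 0.922 CPM per kilobase. Genes that mark tanycytes and ependyma, the cells that line the ventricle, were lower in the same libraries as Col8a2: their summed level was 27.8, 47.1 and 36.4 CPM in knockout libraries against 114, 95.2 and 97.2 CPM in wild-type libraries. Of these 9 genes, 6 were lower and 0 higher at the adjusted threshold, against 0.592% and 0.242% of all genes. None had a count of 0 in any library. The list was chosen with earlier results of these data known. Summed markers of choroid plexus and of meningeal and perivascular fibroblasts, given below, were also lower in every knockout library than in any wild-type library. For the fibroblast markers the gap was narrow, at 68.0 CPM in knockout 2 against 69.8 CPM in wild-type 3. The part of these cell types in the Col8a2 result was not tested.

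The windows of 250 bases before the start sites of Col8a2, Col8a1 and Col4a6 are shown because these were the 3 genes with the lowest p-values among the collagens. They come from RefSeq on build GRCm38.p6, at chr4:126286544-126286793 on the plus strand for Col8a2, chr16:57754738-57754987 on the minus strand for Col8a1 and chrX:141474077-141474326 on the minus strand for Col4a6. Each is written 5′ to 3′ towards the start site, and capitals mark the GC box GGGCGG on either strand (CCGCCC on the other).
Col8a2: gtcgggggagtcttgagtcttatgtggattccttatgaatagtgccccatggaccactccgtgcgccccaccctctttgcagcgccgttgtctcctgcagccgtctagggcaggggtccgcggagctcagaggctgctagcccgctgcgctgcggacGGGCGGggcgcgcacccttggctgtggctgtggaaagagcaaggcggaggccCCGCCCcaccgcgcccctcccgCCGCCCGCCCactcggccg
Col8a1: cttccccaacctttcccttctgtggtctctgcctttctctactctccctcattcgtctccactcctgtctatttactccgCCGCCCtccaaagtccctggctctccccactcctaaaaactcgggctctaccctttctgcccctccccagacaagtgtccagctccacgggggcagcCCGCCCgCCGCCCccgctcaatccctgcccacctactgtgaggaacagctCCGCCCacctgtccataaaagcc
Col4a6: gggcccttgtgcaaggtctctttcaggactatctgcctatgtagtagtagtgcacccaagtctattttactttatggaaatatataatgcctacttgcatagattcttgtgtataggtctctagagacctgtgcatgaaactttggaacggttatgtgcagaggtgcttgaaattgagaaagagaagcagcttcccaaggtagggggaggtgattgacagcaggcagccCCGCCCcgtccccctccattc
The GC box occurred 4 times before Col8a2, where the matches 19 and 15 bases before the start overlap, 4 times before Col8a1, and once before Col4a6, 21 bases from the start. The table holds a promoter for 33 of the 42 collagen genes, and 19 of these (57.6%) had a GC box on either strand, against 32.9% of all 27025 promoters of that length. The nuclear receptor half-site AGGTCA was found on either strand in 7 of the 33 (21.2%), against 13.8% of all promoters, and in none of the windows printed here. CCAAT was found in 11 (33.3%), against 34.5% of all promoters, and TATAAA in 5 (15.2%), against 13% of all promoters. These are matches of letters and no record of binding. The set of all promoters held the first promoter of each gene symbol, whether or not that gene was tested here. It was not matched to the collagens for GC content.

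Among the 11 fibrillar collagen genes, 0 passed the adjusted threshold. The median log2 fold change was -0.10 with 3 positive and 8 negative, and it turned positive with limma-voom quality weights (0.04), without knockout 3 (0.16) and without wild-type 2 (0.10). Col3a1 and Col5a2 had an unadjusted p under 0.05, both lower in the knockout. The summed fibrillar level was 22.4, 28.4 and 14.7 CPM per kilobase in knockout libraries and 19.4, 32.3 and 18.5 CPM per kilobase in wild-type libraries, so the 2 genotypes overlapped.

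Types I and III are the main fibre-forming collagens of soft connective tissue. Col1a1, the alpha 1 chain of type I, had 4.69, 3.78 and 3.83 CPM in knockout libraries and 6.84, 11.7 and 3.59 CPM in wild-type libraries. Col1a2, its alpha 2 chain, had 13.8, 12.05 and 12.8 CPM in knockout libraries and 22.3, 35.0 and 13.3 CPM in wild-type libraries. Col3a1, the single chain of type III, had 2.62, 1.59 and 1.82 CPM in knockout libraries and 4.66, 8.21 and 2.19 CPM in wild-type libraries. Col1a1 and Col1a2 were close together among knockout libraries, and all 3 genes spread more widely among wild-type libraries, in the order wild-type 2, 1 and 3, where wild-type 3 lay within or near the knockout range. The log2 fold changes were -0.84 ± 0.42 for Col1a1 (adjusted p = 0.498), -0.86 ± 0.37 for Col1a2 (0.437) and -1.32 ± 0.50 for Col3a1 (0.344). Without wild-type 2 they were -0.34, -0.46 and -0.77. DESeq2 alone called Col3a1 lower, with an adjusted p of 0.0159.

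Summed markers of meningeal and perivascular fibroblasts, which make type I and III collagen, ran in the same order among wild-type libraries. Among knockout libraries their order differed from that of types I and III. Their summed level was 62.2, 68.0 and 66.8 CPM in knockout libraries and 194, 343 and 69.8 CPM in wild-type libraries. All 14 genes of this list had negative log2 fold changes, with a median of -1.66, and 0 had a count of 0 in any library. Lum, which encodes the matrix proteoglycan lumican, was the 1 that passed the test, at -1.498 ± 0.28 (adjusted p = 0.0458). Over all genes, 0.592% passed it as lower. The part of these cells in the values of types I and III was not tested. The summed level of types I and III was 3.91, 3.23 and 3.43 CPM per kilobase in knockout libraries and 6.27, 10.2 and 3.54 CPM per kilobase in wild-type libraries.

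**Figure D2:**
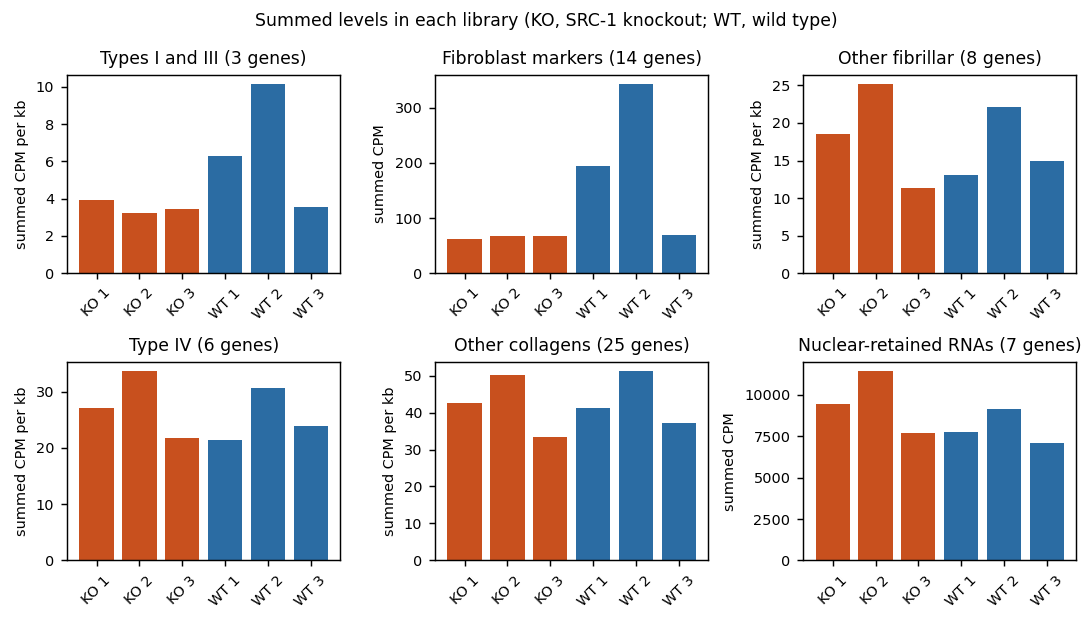
Summed level in each library, as CPM per kilobase of exon for collagen groups and as CPM for marker lists, with knockout libraries in orange and wild-type libraries in blue. Types I and III and the fibroblast markers are highest in wild-type 2 and next in wild-type 1, whereas the other collagen groups are highest in the second library of each genotype, as are the nuclear-retained RNAs.

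The other fibrillar genes followed a different order among the knockout libraries, with knockout 2 highest in each of the 8. Type V collagen sits inside type I fibres and starts their assembly. Col5a2 had 7.03, 11.5 and 6.66 CPM in knockout libraries and 11.4, 15.2 and 11.2 CPM in wild-type libraries. Knockout 2 lay within the wild-type range and the other knockout libraries below it. The log2 fold change was -0.59 ± 0.23 (adjusted p = 0.349), and without knockout 2 the gene was called lower, at -0.88 with an adjusted p of 0.0243. Col5a1 had 5.08, 6.502 and 2.87 CPM in knockout libraries and 4.49, 7.74 and 3.22 CPM in wild-type libraries, and its log2 fold change was -0.10 ± 0.42. Col5a3 had 6.86, 9.25 and 4.86 CPM in knockout libraries and 10.4, 11.2 and 7.46 CPM in wild-type libraries, with a log2 fold change of -0.47 ± 0.25 (adjusted p = 0.499). The groups overlapped for both.

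Type XI collagen, the relative of type V that starts the fibres of cartilage, gave the fibrillar genes of highest level per kilobase in knockout, at 7.27 CPM for Col11a1 and 4.99 CPM for Col11a2. In wild type Col11a1 was again the highest, at 6.03 CPM per kilobase, but Col1a2, at 4.51, stood above Col11a2, at 3.58. Col11a1 had 58.7, 86.1 and 32.5 CPM in knockout libraries and 30.9, 69.2 and 47.0 CPM in wild-type libraries. Col11a2 had 41.4, 50.2 and 24.3 CPM in knockout libraries and 23.5, 37.3 and 22.5 CPM in wild-type libraries. Within a genotype these genes differed more than 1.5-fold between their highest and lowest library, and the log2 fold changes were 0.27 ± 0.50 for Col11a1 (adjusted p = 0.897) and 0.48 ± 0.36 for Col11a2 (0.701). Col2a1, the fibre collagen of cartilage, had 5.84, 8.64 and 4.08 CPM in knockout libraries and 4.78, 7.92 and 6.76 CPM in wild-type libraries (-0.07 ± 0.30). The fibrillar types XXIV and XXVII belong to the same family. Col24a1 had 6.15, 7.59 and 3.07 CPM in knockout libraries and 2.38, 8.08 and 6.71 CPM in wild-type libraries (-0.03 ± 0.56), and Col27a1 had 11.6, 14.3 and 8.22 CPM in knockout libraries and 10.1, 11.9 and 8.76 CPM in wild-type libraries (0.15 ± 0.20). Knockout and wild-type values overlapped for each of the 5 genes.

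**Figure D3:**
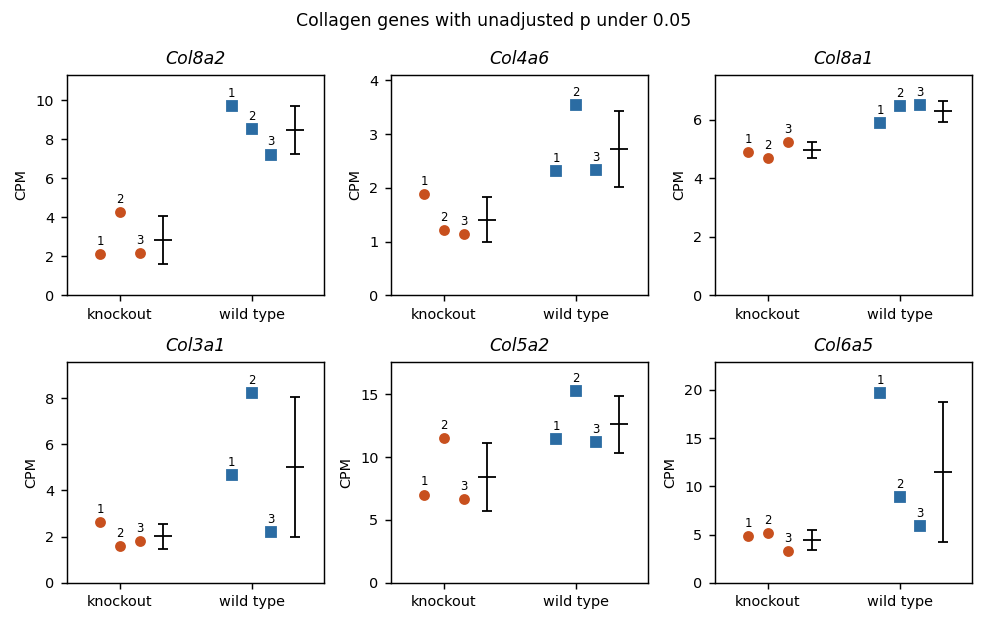
Level in CPM of the 6 collagen genes with an unadjusted p under 0.05, with each library numbered and the mean ± SD of each genotype beside it (n = 3 each; each axis starts at 0). Knockout and wild-type values are apart for Col8a2, Col4a6, Col8a1 and Col6a5 and overlap for Col3a1 and Col5a2; wild-type 1 lies far above the other wild-type libraries for Col6a5, at 19.6 CPM.

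Type IV collagen had the gene of highest level per kilobase among all collagens, Col4a2. It had 117, 145 and 90.3 CPM in knockout libraries and 87.9, 122.8 and 97.6 CPM in wild-type libraries. Col4a1 had 54.6, 70.8 and 48.2 CPM in knockout libraries and 44.9, 65.8 and 49.9 CPM in wild-type libraries. These genes encode the 2 chains of the common type IV network, and neither differed beyond the spread between libraries, with log2 fold changes of 0.19 ± 0.21 (adjusted p = 0.797) and 0.11 ± 0.19 (0.885). They lie head to head on chromosome 8 with 5′ ends that overlap by 85 bases. Since 13.1% of the exon bases of Col4a1 are shared with Col4a2 or with Gm15418, and reads there were not counted, its level is an underestimate by an unknown amount. The ratio of Col4a1 to Col4a2 per kilobase was 0.365, 0.382 and 0.419 in knockout libraries and 0.401, 0.420 and 0.401 in wild-type libraries, which is a far narrower range than either gene alone showed.

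The remaining type IV genes encode chains of more restricted networks, such as that of the kidney glomerulus, and had negative log2 fold changes. Col4a6 had 1.88, 1.21 and 1.14 CPM in knockout libraries and 2.30, 3.54 and 2.33 CPM in wild-type libraries. The groups did not overlap, and the log2 fold change was -0.95 ± 0.26 (unadjusted p = 0.00417, adjusted p = 0.133). With DESeq2 the adjusted p was 0.0480, and with no filter on low counts it was 0.00446. Col4a5, its neighbour, had 9.27, 11.2 and 8.96 CPM in knockout libraries and 10.002, 15.2 and 10.6 CPM in wild-type libraries (-0.28 ± 0.17, adjusted p = 0.559), and here knockout 2 lay within the wild-type range. Col4a6 and Col4a5 lie head to head on chromosome X, 1275 bases apart. The ratio of Col4a6 to Col4a5 per kilobase was 0.192, 0.102 and 0.120 in knockout libraries and 0.217, 0.219 and 0.208 in wild-type libraries, so it was lower in each knockout library than in any wild-type library.

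Col4a3 and Col4a4 are a second head-to-head pair, on chromosome 1, with 71 bases between them. Col4a3 had 2.24, 2.55 and 1.60 CPM in knockout libraries and 2.08, 3.59 and 2.91 CPM in wild-type libraries (-0.43 ± 0.24, adjusted p = 0.526). Col4a4 had 2.45, 3.35 and 1.99 CPM in knockout libraries and 2.57, 3.86 and 4.74 CPM in wild-type libraries (-0.52 ± 0.26, adjusted p = 0.451). Both pairs of groups overlapped. Over the 6 type IV genes the median log2 fold change was -0.36, with 2 positive and 4 negative. Col4a1 and Col4a2 together stood at 25.3 ± 5.65 CPM per kilobase in knockout and 22.4 ± 4.12 CPM per kilobase in wild type (SD, n = 3 each).

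Markers of the vessel wall cells that surround themselves with type IV collagen are given beside these values. Endothelial markers summed to 224, 217 and 198 CPM in knockout libraries and 194, 206 and 156 CPM in wild-type libraries, with 8 of 9 genes positive and 0 called. Mural cell markers summed to 227, 210 and 210 CPM in knockout libraries and 212, 241 and 161 CPM in wild-type libraries, with 3 of 8 tested genes positive and 0 called; 1 of the 9 listed had a count of 0 in a library. Among wild-type libraries, wild-type 2 was the highest in both lists, as for Col4a1 and Col4a2. Among knockout libraries, knockout 2 was the highest for Col4a1 and Col4a2 but in neither list. The part of these cells in the type IV values was not tested.

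**Figure D4:**
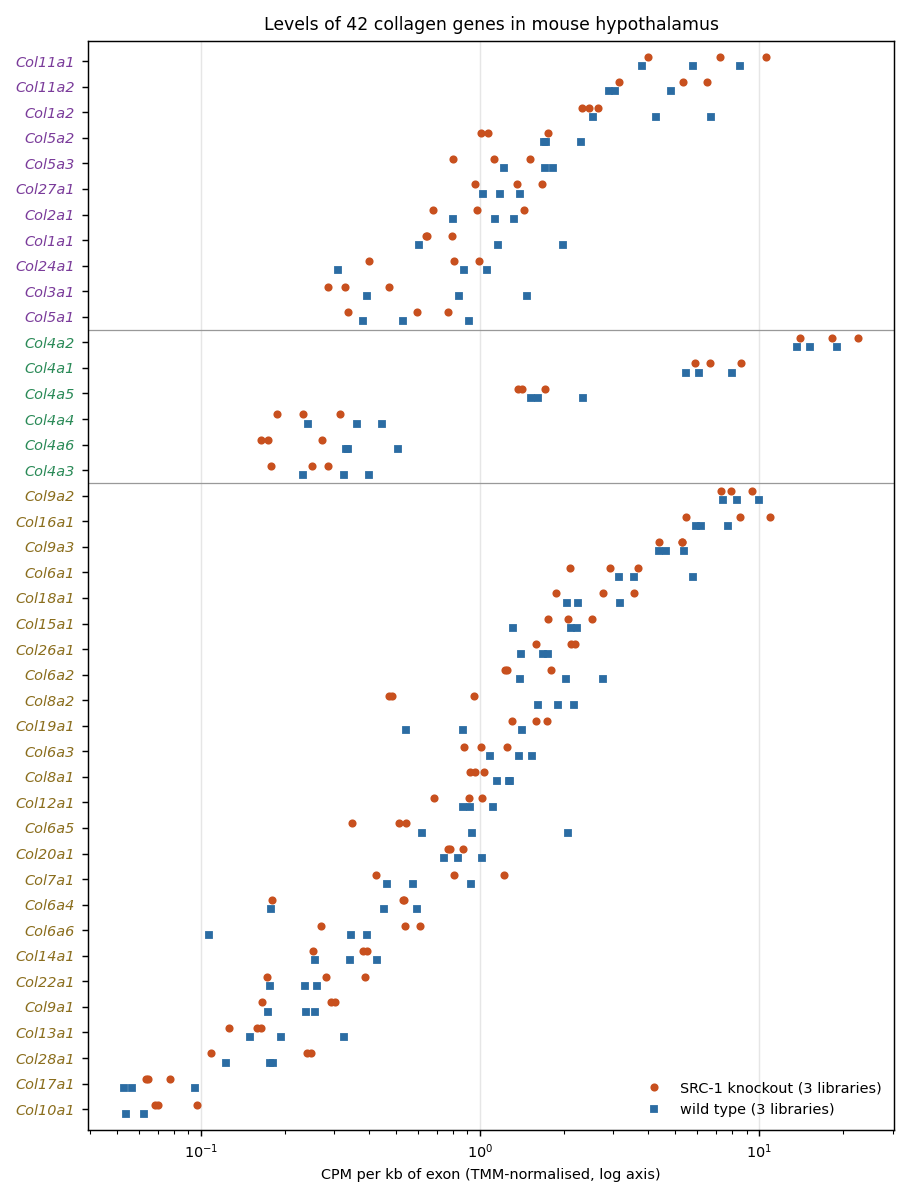
Level of each of the 42 collagen genes in CPM per kilobase of exon on a log axis, with 3 knockout libraries (circles, upper in each row) and 3 wild-type libraries (squares, lower in each row), for fibrillar (top), type IV (middle) and other collagens (bottom). Col4a2 is the highest and Col17a1 and Col10a1 the lowest, and the circles of Col8a2 lie to the left of all its squares; the wild-type library with 0 counts for Col10a1 cannot be drawn on this axis.

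The other 25 collagens had a median log2 fold change of 0.01 over the 24 tested, with 14 positive and 10 negative, and scaling by library totals alone moved it to -0.02. Besides both type VIII genes, only Col6a5 had an unadjusted p under 0.05. Type VI collagen forms beaded filaments around cells, and Col6a1, Col6a2 and Col6a3 encode its common chains. Col6a1 had 11.6, 14.6 and 8.35 CPM in knockout libraries and 14.1, 22.9 and 12.5 CPM in wild-type libraries (-0.52 ± 0.31, adjusted p = 0.581). Col6a2 had 7.51, 10.8 and 7.38 CPM in knockout libraries and 12.2, 16.6 and 8.37 CPM in wild-type libraries (-0.53 ± 0.27, adjusted p = 0.503). For both genes knockout 2 lay within the wild-type range. Col6a3 had a log2 fold change of -0.35 ± 0.16 (adjusted p = 0.388).

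Col6a4, Col6a5 and Col6a6 encode alternative chains of type VI and form a cluster on chromosome 9, all on the minus strand with 27540 and 27855 bases between neighbours. Col6a5 had 4.86, 5.14 and 3.29 CPM in knockout libraries and 19.6, 8.87 and 5.90 CPM in wild-type libraries. All knockout values lay under all wild-type values, but wild-type 1 stood far above the rest. Its log2 fold change was -1.37 ± 0.51 (adjusted p = 0.366), and -0.74 without wild-type 1. Col6a6 ran the other way, at 4.10, 4.64 and 2.04 CPM in knockout libraries and 0.809, 2.98 and 2.62 CPM in wild-type libraries (0.75 ± 0.53, adjusted p = 0.668), and its lowest value was in the wild-type library where Col6a5 was highest. The ratio of Col6a6 to Col6a5 per kilobase was 1.05, 1.13 and 0.774 in knockout libraries and 0.0515, 0.420 and 0.556 in wild-type libraries. Col6a4 gave 0.02 ± 0.59. The summed level of the 6 type VI genes was 6.71 ± 1.70 CPM per kilobase in knockout and 9.44 ± 2.46 CPM per kilobase in wild type (SD, n = 3 each), with overlapping values.

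The 9 collagens that decorate fibres (FACIT collagens, with interrupted triple helices) had a median log2 fold change of 0.06, and 0 had an unadjusted p under 0.05. Those of highest level per kilobase were Col9a2, Col16a1 and Col9a3, whereas Col9a1, for the remaining chain of type IX, was the lowest of the 9, at 0.253 CPM per kilobase in knockout and 0.222 CPM per kilobase in wild type. Col9a2 had 21.7, 25.9 and 20.1 CPM in knockout libraries and 22.9, 27.3 and 20.3 CPM in wild-type libraries. Col9a3 had 16.3, 16.4 and 13.5 CPM in knockout libraries and 14.3, 16.6 and 13.5 CPM in wild-type libraries. These were among the steadiest collagen genes, with log2 fold changes of -0.06 ± 0.13 and 0.06 ± 0.11; 7.67% of the exon bases of Col9a3 overlap Tcfl5 on the opposite strand. Col16a1 had 54.3, 69.9 and 35.0 CPM in knockout libraries and 37.8, 49.4 and 39.3 CPM in wild-type libraries (0.33 ± 0.28, adjusted p = 0.735). Its knockout libraries ranged from below to above every wild-type library.

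Col15a1 and Col18a1 encode the multiplexins of vessel basement membranes, and the end of type XVIII is released as endostatin. Col18a1 had 19.97, 25.8 and 13.6 CPM in knockout libraries and 14.8, 22.9 and 16.1 CPM in wild-type libraries (0.14 ± 0.29). Col15a1 had 14.1, 11.6 and 9.82 CPM in knockout libraries and 12.5, 11.9 and 7.34 CPM in wild-type libraries (0.17 ± 0.22). Both overlapped between genotypes, and Col15a1 differed from most collagens in being highest in the first library of each genotype. Col26a1 had 8.51, 8.77 and 6.38 CPM in knockout libraries and 7.04, 6.73 and 5.61 CPM in wild-type libraries (0.29 ± 0.15, adjusted p = 0.486). The remaining 10 tested genes not given beyond their means, Col7a1, Col9a1, Col12a1, Col13a1, Col14a1, Col17a1, Col19a1, Col20a1, Col22a1 and Col28a1, had log2 fold changes between -0.57 (Col13a1) and 0.72 (Col19a1) with none under an unadjusted p of 0.05. Among them are Col7a1, the anchoring fibril collagen of skin, and Col17a1, a transmembrane collagen of epithelial attachment, which averaged 0.379 ± 0.0431 CPM in knockout and 0.378 ± 0.130 CPM in wild type (SD, n = 3 each). Col10a1, which was not tested, had 0.214, 0.302 and 0.219 CPM in knockout libraries and 0.196, 0 and 0.168 CPM in wild-type libraries. Its knockout values all lay above its wild-type values, at very low counts.

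The order of levels among the collagens was much alike in the genotypes. Spearman's rho between the mean levels per kilobase in knockout and in wild type was 0.93 over the 42 genes, which share the same libraries and exon lengths, and the same 10 genes were the 10 highest in each. Summed over all 42 genes the level was 91.3 ± 21.2 CPM per kilobase in knockout and 91.9 ± 19.2 CPM per kilobase in wild type (SD, n = 3 each), a difference far smaller than the spread between libraries. Fibrillar genes made up 23.6% ± 2.19 of this level in knockout and 25.1% ± 2.81 in wild type, type IV genes 30.2% ± 0.936 in knockout and 27.7% ± 2.11 in wild type, and the other collagens 46.2% ± 1.49 in knockout and 47.3% ± 2.80 in wild type.

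Within each genotype the collagen genes moved together from library to library. Summed over all 42, the level was 92.0, 112 and 69.8 CPM per kilobase in knockout libraries 1, 2 and 3 and 82.1, 114 and 79.5 CPM per kilobase in wild-type libraries 1, 2 and 3. Knockout 2 was the highest knockout library for 33 of 41 tested genes (80.5%), against 32.2% of all genes, and knockout 3 was the lowest for 35 (85.4%), against 36.8%. Wild-type 2 was the highest wild-type library for 34 (82.9%), against 35.4% of all genes, and the lowest for 0. Both second libraries were the highest of their genotype for 29 genes (70.7%), against 16.8% of all genes. The 8 exceptions among knockout libraries were Col1a1, Col1a2 and Col3a1, Col4a6, Col8a1, Col12a1, Col15a1 and Col28a1. The highest library exceeded the lowest by a median of 1.65-fold among knockout and 1.66-fold among wild-type libraries for collagens, against 1.18-fold and 1.198-fold over the 20176 genes with counts in every library. This pattern was noticed after the values were seen, and it is given as a description.

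**Figure D5:**
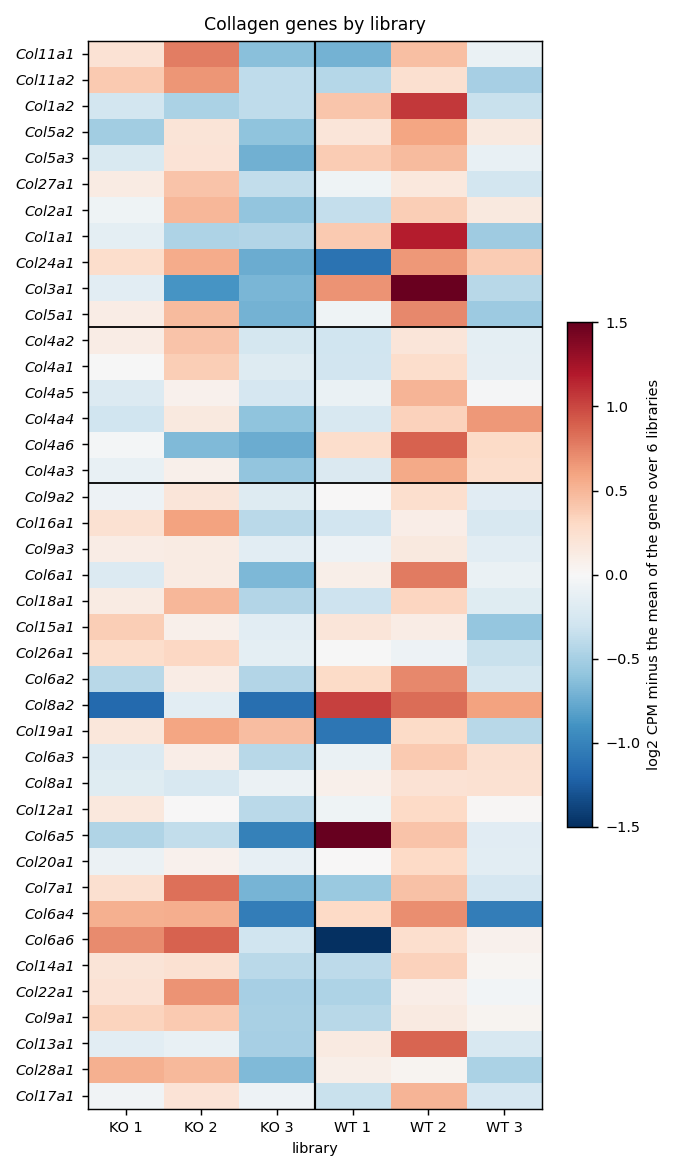
Level of each tested collagen gene in each library as log2 CPM minus the mean of that gene over the 6 libraries, with knockout libraries (KO) left of wild-type libraries (WT) and lines between fibrillar, type IV and other collagens. Most rows are red in the second library of each genotype and blue in knockout 3; Col8a2 is blue in all knockout libraries and red in all wild-type libraries.

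A list of 7 RNAs that stay in the nucleus, among them Malat1, Neat1 and Meg3, was added after this pattern was seen. Their summed level was 9477, 11430.3 and 7724 CPM in knockout libraries and 7765, 9152 and 7094 CPM in wild-type libraries, which within each genotype is the order of the summed collagen level, though not over all 6 libraries. Malat1 departed from that order among knockout libraries, at 620, 608 and 575 CPM, and followed it among wild-type libraries, at 518, 598 and 392 CPM. Rian departed from it in both genotypes, with 802, 928 and 818 CPM in knockout libraries and 794, 792 and 777 CPM in wild-type libraries. The remaining genes of the list followed it. Over all tested genes, 20% had the order knockout 2, 1 and 3. Most of the sum came from Meg3, at 4392, 5160 and 3264 CPM in knockout libraries, and Snhg11, at 2905, 3841 and 2578 CPM. All 7 had positive log2 fold changes, with a median of 0.25, and 0 were called. Their part in the collagen pattern was not tested. Collagen genes are rich in G and C, with a median exon GC content of 55.5% against 49.3% for all tested genes with a value. The 2025 genes with the highest GC content had a median difference between knockout 2 and knockout 3 of 0.045 on the log2(CPM + 0.5) scale and those with the lowest one of -0.080, against 0.57 for the collagens. On the same scale the median difference between wild-type 2 and wild-type 1 was 0.48 for the collagens and 0.00 for the genes of highest and of lowest GC content. The part of GC content in the pattern was not tested.

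The genes that process, anchor, sense and degrade collagen were examined from lists of known members, and 0 of them passed the adjusted threshold in either direction. Of 29 tested genes for collagen synthesis and cross-linking, 1 was higher and 3 were lower at an unadjusted p under 0.05 (5.75% and 7.21% of all genes), with a median log2 fold change of -0.05. P4ha3, a subunit of the prolyl hydroxylase that stabilises the triple helix, had 9.75, 9.27 and 9.34 CPM in knockout libraries and 14.2, 12.1 and 12.1 CPM in wild-type libraries (-0.43 ± 0.10, adjusted p = 0.0796). Its groups did not overlap. The lysyl hydroxylase genes Plod2 and Plod1 gave -0.23 and 0.20, and the cross-linking enzyme gene Loxl1 gave -0.47 ± 0.19 (adjusted p = 0.325).

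Of 17 genes for other basement membrane proteins, 15 had negative log2 fold changes and 5 were lower at an unadjusted p under 0.05, with a median of -0.15, against 48.9% negative and 7.21% lower over all genes. Lamb2, the laminin beta 2 chain, had 35.4, 33.8 and 32.8 CPM in knockout libraries and 49.3, 51.2 and 39.0 CPM in wild-type libraries (-0.45 ± 0.10, adjusted p = 0.0686). The laminin genes Lama1, which is also among the fibroblast markers, and Lamb3 gave -0.45 ± 0.16 and -1.0001 ± 0.34, and Sparc, a collagen-binding glycoprotein, gave -0.24 ± 0.10. Among 10 tested collagen receptors, 8 were negative and 4 were lower at an unadjusted p under 0.05 (7.21% of all genes), with a median of -0.14. Mrc2, an endocytic receptor for collagen, had 6.93, 6.96 and 6.38 CPM in knockout libraries and 11.7, 16.3 and 9.60 CPM in wild-type libraries (-0.89 ± 0.18, adjusted p = 0.0564). Itga11, the alpha 11 integrin, had 2.36, 2.27 and 2.19 CPM in knockout libraries and 3.24, 3.93 and 4.26 CPM in wild-type libraries (-0.74 ± 0.17, adjusted p = 0.0726). Neither gene's groups overlapped, and Itga2 and Ddr2 gave -0.66 and -0.68. Of 12 tested genes of matrix turnover, 1 was higher and 1 lower at an unadjusted p under 0.05 (5.75% and 7.21% of all genes): Mmp15, a membrane-bound metalloproteinase, at 0.22 and Timp3, a metalloproteinase inhibitor, at -0.25. Next in order of p, Mmp9 gave 0.33 and Mmp16 gave -0.27.

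Markers of 4 further cell types were summed as a check on the tissue taken. Choroid plexus genes summed to 27.1, 34.6 and 35.7 CPM in knockout libraries and 50.5, 53.7 and 48.2 CPM in wild-type libraries, with 6 of 7 tested genes negative and 0 called. Pituitary genes summed to 11.9, 2.80 and 1.53 CPM in knockout libraries and 20.6, 9.35 and 17.2 CPM in wild-type libraries, with 1 of 5 tested genes lower (0.592% of all genes). Of the 6 listed, 3 had a count of 0 in a library. Gh, which was not tested, made up much of the sum in knockout 1, at 6.67 CPM, and in wild-type 1, at 11.7 CPM. Oligodendrocyte genes summed to 7354, 6234 and 5496 CPM in knockout libraries and 3435, 4292 and 4195 CPM in wild-type libraries, with 5 of 7 genes higher (0.242% of all genes). The 9 genes of hypothalamic neurons summed to 585, 673 and 711 CPM in knockout libraries and 693, 685 and 642 CPM in wild-type libraries. Of these genes 3 were positive, 6 were negative and 0 were called, with a median log2 fold change of -0.66. Pmch gave 0.468 ± 0.32 and Hcrt 0.466 ± 0.34. Pomc gave -2.26 ± 0.81, Agrp -1.999 ± 0.58, Npy -1.63 ± 0.68 and Nr5a1 -1.02 ± 0.45. Pomc and Agrp had an unadjusted p under 0.05. The sum does not show these opposite directions. None of the 4 sums had knockout 2 as the highest knockout library. Wild-type 2 was the highest wild-type library for choroid plexus and oligodendrocyte genes but not for pituitary and hypothalamic neuron genes. The part of these cell types in the collagen values was not tested.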

How the data were processed

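Hypothalamic RNA from 3 SRC-1 knockout and 3 wild-type samples was sequenced after RNeasy extraction and Illumina TruSeq preparation, per the labels' protocols. The authors deposited raw, unnormalized counts of each gene. According to the submitters' processing notes the aligner was STAR 2.7.10a. Exons were counted with featureCounts, version 2.0.0 per the file headers and 2.0.3 per the submitters' processing notes. The gene models are those of RefSeq for mm39 (GRCm39 in the labels), per the file headers. The command there sets no strand, multi-mapping or multi-gene option, so strands cannot be told apart and reads of overlapping genes or of several places were not counted.

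Rows without a gene name numbered 0, as did unused columns of values. Groups and replicate numbers came from the labels. Genotypes were compared by edgeR 4.0.16 (R 4.3.3) after TMM scaling, with the expression filter by group at a minimum count of 10, robust quasi-likelihood F-tests and Benjamini-Hochberg adjustment over all 20257 tested genes, at a threshold of 0.05. The fit was tested on simulated data. The standard error of a log2 fold change is its size over the root of the F statistic. Levels are TMM-normalised CPM with SD over 3 libraries, and levels of different genes are compared per kilobase of exon. No exact permutation p was computed, since 3 against 3 cannot go below 0.1. Chi-square tests between libraries of 1 genotype found no pair within sampling noise, so all were kept. Alternatives used DESeq2 1.42.0, limma 3.58.1, other scalings and filters, a replicate block and fewer libraries.

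The members and gene lists were chosen with earlier results of these data known. Values by library are given for members past the threshold, for all fibrillar and type IV genes, for other collagens with an unadjusted p under 0.05 or among the 8 highest per kilobase, and the rest by range; of related lists, up to 4 genes with the lowest p. Col6a6, Col9a1, Col17a1, Col10a1, Malat1, Rian, Gh, the named genes of hypothalamic neurons and the ratios between neighbours were added after their values were seen. Promoters were read from a RefSeq table on GRCm38.p6 and motifs matched by Python 3.11.15. For the 3 printed, the start site was found in GRCm39 at, or for Col4a6 19 bases inside, the gene's 5′ end. Some others counted for motifs also lay at that end, as for Col1a2. Some lay much further inside, by 1839 bases for Col6a4 and 1901 bases for Col6a5.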

Additional observations from a re-analysis of the deposited data

How the results depend on the processing

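The number of collagen genes lower in the knockout was 1 and changed under most alternatives; it dropped to 0 where Col8a2, with an adjusted p of 0.0497, passed over the threshold, and grew where other genes joined. It was 0 with RLE size factors (Col8a2 adjusted p = 0.0517), with library totals alone (0.0767), with a floor of 1 CPM in 3 or more libraries (0.0584) and without replicate 1 of both groups (0.374). It was 2 with no filter on low counts, where Col4a6 joined, and 3 with DESeq2, where Col4a6 and Col3a1 joined; limma-voom gave 1 (Col8a2 adjusted p = 0.0358) and so did quality weights (0.0250). With 1 library left out it ran from 0 to 2, where Col5a2 joined without knockout 2. The number higher in the knockout was 0 in every alternative. The labels do not say whether replicate numbers pair the samples. Deviations from the group means correlated at -0.18, 0.38 and 0.24 for same-numbered libraries 1, 2 and 3. Knockout 1 gave 0.06 and 0.11 with wild-type 2 and 3. Knockout 2 gave 0.005 and -0.34 with wild-type 1 and 3, and knockout 3 gave 0.15 and -0.42 with wild-type 1 and 2. Libraries 2 and 3 thus correlated best with their own number and library 1 did not. With the replicate as a block the number lower was 0, with an adjusted p of 0.0574 for Col8a2. The block left 54 genes higher and 101 lower over all genes, against 49 and 120 without it. The same counts over all genes were 306 higher and 515 lower with DESeq2, 350 and 616 with no filter, 22 and 81 with limma-voom, 135 and 266 with quality weights, 15 and 51 with library totals, 21 and 63 with the stricter filter, and 6 and 23 without replicate 1 of both groups. Where the cause is not the number of genes or samples used, it was not tested.

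Among collagens, signs changed only for genes that no alternative called. With library totals alone, Col14a1 had -0.025, Col17a1 -0.026 and Col6a4 -0.013; without replicate 1 of both groups, Col14a1 had -0.26, Col17a1 -0.11, Col6a4 -0.12, Col9a1 -0.088 and Col9a3 -0.017. Col24a1 had 0.036 with limma-voom, 0.38 with quality weights and 0.021 with the block, and quality weights gave Col2a1 0.050 and Col5a1 0.037. With 1 library left out, ranges crossed 0 for Col11a1 (-0.10 to 0.60), Col14a1 (-0.17 to 0.20), Col15a1 (-0.038 to 0.30), Col17a1 (-0.15 to 0.31), Col18a1 (-0.10 to 0.35), Col20a1 (-0.20 to 0.030), Col24a1 (-0.41 to 0.30), Col27a1 (-0.050 to 0.34), Col2a1 (-0.39 to 0.16), Col4a1 (-0.055 to 0.29), Col5a1 (-0.37 to 0.32), Col6a4 (-0.34 to 0.39), Col7a1 (-0.091 to 0.65), Col9a2 (-0.17 to 0.063) and Col9a3 (-0.0041 to 0.15). Depth limits the genes under 100 counts in all, Col10a1 and Col17a1.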
